A study of Rattus norvegicus with 12 samples.

Results

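The RNA of cells given 1 of 2 treatments aimed at Cirbp was compared directly, with 3 libraries labelled si-CIRBP set against 3 libraries labelled CIRBP. These 6 of the 12 libraries of the study were chosen by the treatment named in their titles, and no measured value entered the choice. All 12 libraries came from cells put through oxygen-glucose deprivation with reperfusion (OGD/R), a culture model of ischaemia in which cells lose oxygen and glucose and then regain both. The groups were OGD/R with NC, with CIRBP, with si-NC and with si-CIRBP, 3 libraries each, and none was without OGD/R. The labels give these names alone, without the vector, the dose or the time. In the expression table the columns of NC and CIRBP carry the prefix ad, and those of si-NC and si-CIRBP do not. A direct comparison of the treatments therefore crosses from one arm of the study (NC and CIRBP) to the other (si-NC and si-CIRBP), so that treatment and arm cannot be told apart in it. The gap between the control groups, si-NC minus NC, gives the difference between the arms without either treatment, and is printed, itself or as the difference of the gaps, beside many of the results. The titles name H9C2, a line derived from embryonic rat heart and used as a myoblast model, whereas the cell line label reads Rat Astrocytes. The libraries of a group are called biological replicates, but separate cultures are not stated, so the p-values below measure the spread between these libraries, which may be technical.

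Cirbp encodes the cold-inducible RNA-binding protein, which rises on mild cooling and under hypoxia and binds messenger RNAs to alter their stability and translation. Cells deprived of oxygen, nutrients or folding capacity phosphorylate the initiation factor eIF2, which lowers translation in general and raises that of the transcription factor ATF4. ATF4 then drives genes for amino acid synthesis and uptake, such as Asns and Slc7a11, and with its partner CHOP (gene Ddit3) the stress genes Trib3 and Chac1. NF-kB is the other main stress pathway here. Its subunits (genes Rela, Relb, Nfkb1 and Nfkb2) are held back by inhibitors such as the product of Nfkbia. Nfkbia and Tnfaip3, another inhibitor of the pathway, are themselves NF-kB targets and so serve as readouts of its activity.

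Cirbp (ENSRNOG00000015999) was at 34.3, 36.5 and 36.5 FPKM in CIRBP libraries 1, 2 and 3. The libraries labelled si-CIRBP held 26.5, 28.6 and 27.7 FPKM. FPKM (fragments scaled by transcript length and by the number mapped) is the unit of all levels below. The groups did not overlap, and the libraries labelled si-CIRBP differed from CIRBP by -0.36 on the scale of log2(FPKM + 1) (SE 0.05, adjusted p = 0.00286 with limma), a ratio of means of 1.3. That gap does not come from a fall below the matched control, since si-NC libraries stood at 29.0, 24.2 and 27.0 FPKM (mean 26.7, against 27.6 in si-CIRBP). By its mRNA, Cirbp therefore does not match the label of those libraries, the protein was not measured, and no direction below rests on a loss of Cirbp from the libraries labelled si-CIRBP. The mean of NC, 19.7 FPKM, was the lowest of the 4 groups, and si-NC exceeded NC by 0.42 (adjusted p = 0.00135). Rbm3, a second RNA-binding protein induced by cold, ran the opposite way to Cirbp. It was at 221, 219 and 243 FPKM in CIRBP and at 299.7, 304 and 305 FPKM in si-CIRBP, without overlap (0.41, SE 0.06, adjusted p = 0.00188). The control groups differed likewise (0.31), and the gap between treatments did not exceed theirs by the test (difference 0.10, adjusted p = 0.33).

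Over all 13373 genes tested in these 6 libraries, 5585 (41.8%) differed at an adjusted p under 0.05 with limma, 2727 (20.4%) higher and 2858 (21.4%) lower in the libraries labelled si-CIRBP. Differences of at least 1 on the log2 scale were fewer and mostly upward, with 703 genes (5.26%) higher and 214 (1.6%) lower. These shares are the background against which each gene group is read below, and a group called as often as 20.4% upward or 21.4% downward is no different from the table as a whole. All 3 libraries of one treatment lay above all 3 of the other in 26.9% of the genes for si-CIRBP and in 29.6% for CIRBP. Summed expression was 482263 to 502889 FPKM per library, and the depth behind a value is unknown beyond a relative depth of 0.895 to 1.03 (from the steps between low values, NC library 1 being 1). The si-CIRBP libraries were less alike than the CIRBP libraries, with a median SD across genes of 0.145 against 0.0554 on the log2 scale. si-CIRBP library 1 stood apart from libraries 2 and 3 (r of 0.968 to 0.969 across genes, against 0.991 between libraries 2 and 3), and its share of expression from mitochondrial genes was 5.44%, against 7.82% to 8.29% in the other 5 libraries. Leaving it out raised the calls to 3595 higher (28.3% of 12685) and 4328 lower (34.1%). Leaving out another library lowered them, to 3591 in all without CIRBP library 1, 3516 without CIRBP library 2 and 3591 without si-CIRBP library 3, and the upward calls to 1648 and 1526 without si-CIRBP library 2 and 3. The downward calls were 1685, 1654 and 1869 without CIRBP library 1, 2 and 3. The upward calls in these fits were 1906, 1862 and 2133, of 13172, 13168 and 13159 genes tested. Without si-CIRBP library 2 and 3 the downward calls were 2282 and 2065, of 12681 and 12706 genes tested. Counts of list members from a fit without 1 library are read against these totals.

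The control groups differed by a large set of genes of their own, 4909 of 14257 (34.4%), with 1783 (12.5%) higher and 3126 (21.9%) lower in si-NC than in NC. Of the 5585 genes called between the treatments, 2471 (44.2%) were also called between the controls in the same direction, and these are 54.3% of the 4549 control calls among the genes tested in both. Whether a treatment gap differed from the control gap was tested as the difference of the 2 gaps, si-CIRBP minus CIRBP less si-NC minus NC. This is the same quantity as the effect of si-CIRBP over si-NC less that of CIRBP over NC. It was higher in 1555 genes (10.9%) and lower in 980 (6.87%), a split that scaling the libraries by median ratios moved to 1376 and 1310. The calls numbered 4503 without si-CIRBP library 1, and between 1529 and 1592 without any single NC library or without CIRBP library 1 or 2.

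**Figure D1:**
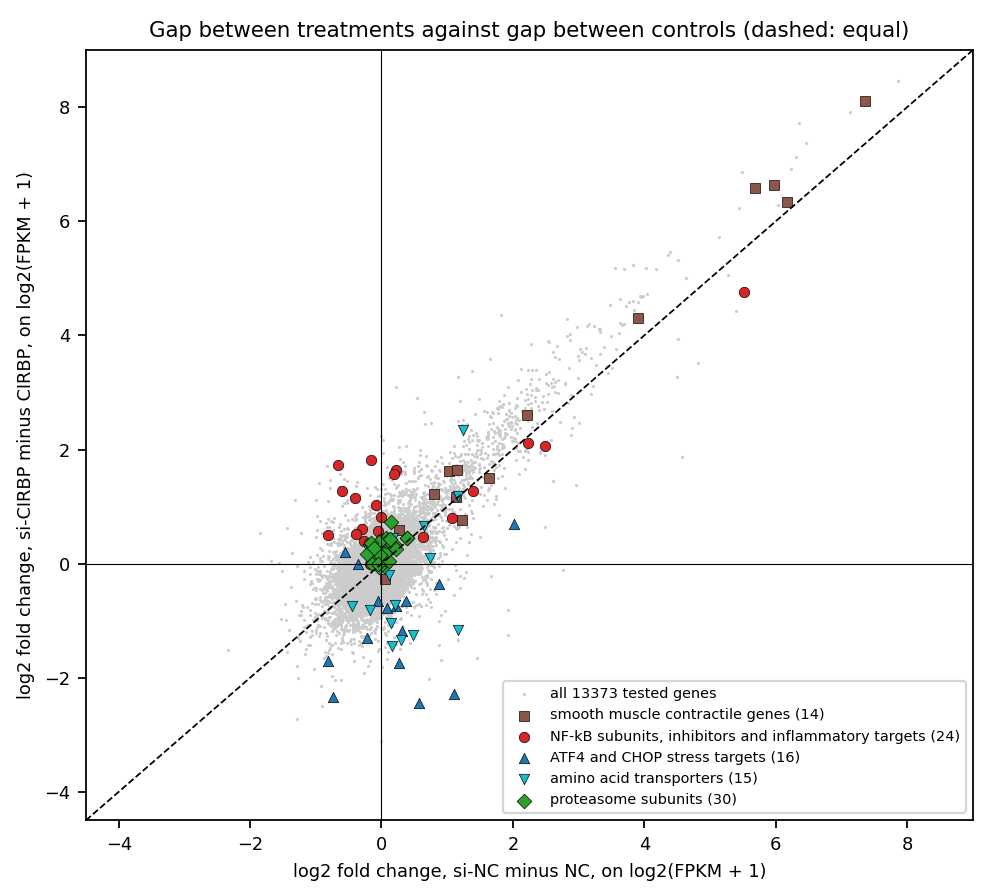
Each grey point is 1 of the 13373 tested genes, with its gap between the control groups (horizontal axis, log2 fold change si-NC minus NC) and its gap between the treatments (vertical axis, si-CIRBP minus CIRBP). On the dashed line both gaps are equal, and the smooth muscle genes (brown squares) lie along it up to a gap of 8.10, whereas the ATF4 and CHOP targets (dark blue) fall below it and most NF-kB genes (red) and proteasome subunits (green) above it.

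The largest gaps between the treatments included contractile and collagen genes, and the controls differed in the same genes. The smooth muscle actin gene Acta2 had 0.824, 0.978 and 1.26 FPKM in CIRBP against 466, 546 and 659.5 FPKM under the si-CIRBP label (8.10, adjusted p = 1.12e-06). In si-NC it was at 73.8, 954 and 722 FPKM against a mean of 1.41 FPKM in NC, and the difference of the gaps was 0.75 (adjusted p = 0.682). So the arms differed in Acta2 with or without the treatments, and si-NC library 1 held far less than the other si-NC libraries. Col1a1, a chain of type I collagen, was at 1.02, 1.20 and 1.79 FPKM in CIRBP and at 314, 539.6 and 683 FPKM in si-CIRBP (7.72). Tagln, the actin-bundling transgelin, was at 0.860, 0.799 and 1.05 and 196, 159.9 and 193 FPKM (6.59). All of the 15 largest increases were called higher in si-NC than in NC as well (12.5% of all genes were), and none had a called difference of gaps (10.9% of all genes upward). Besides Acta2, Col1a1 and Tagln they were the carbonic anhydrase Ca3 (7.92), the myosin light chain Myl9 (7.13), the tropomyosin Tpm2 (6.63), the enteric smooth muscle actin Actg2 (6.33), the muscle ankyrin repeat gene Ankrd1 (6.86) and the LIM-domain gene Fhl1 (5.72). With them came the collagen Col3a1 (6.91), the collagen chaperone Serpinh1 (6.29), the basement membrane protein gene Nid1 (5.32), the surface glycoprotein gene Thy1 (5.40), the small heat shock gene Hspb1 (6.23) and Gm2a (5.47), a lysosomal lipid-binding protein. In 8 of the 15 (Myl9, Tpm2, Actg2, Fhl1, Nid1, Thy1, Hspb1 and Gm2a) every CIRBP library was under 1 FPKM, so they were tested through si-CIRBP alone and had to differ. Acta2 and Tagln reached 1 FPKM in a single CIRBP library, so si-CIRBP alone would have passed them as well. In Col1a1, Myl9 and Thy1, as in Acta2, si-NC library 1 lay far below si-NC libraries 2 and 3 (Myl9 at 21.0, 275 and 202 FPKM). The median SD across genes was 0.129 in si-NC against 0.0519 in NC. Such spread weakens the test of the difference of gaps, so a missing call in these 15 does not show equal gaps. There were 122 entries under 1 FPKM in every CIRBP library and at 5 FPKM or more in every si-CIRBP library, 112 of them also under 1 FPKM in every NC library. The reverse pattern had 0. In bulk RNA, fewer cells of a type and less RNA of a gene per cell cannot be told apart.

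Of the smooth muscle contractile genes, all 14 were tested, but 8 passed the filter of 1 FPKM in 3 libraries through si-CIRBP alone and so had to differ. The other 6 held 5 called higher (Acta2, Tagln, Myh11, Cald1 and Tpm1), against 20.4% of all genes, and the 14 together had no called difference of gaps. Acta2 and Tagln reached 1 FPKM in a single CIRBP library, so si-CIRBP alone would have passed them too. The count of 5 of 6 is therefore not free of the filter. Of 42 genes of the sarcomere and calcium store of striated muscle, 11 were tested, 5 of them through si-CIRBP alone. The cardiac troponin gene Tnnt2 was at 3.96, 3.70 and 4.56 FPKM in CIRBP and at 9.45, 61.4 and 89.9 FPKM in si-CIRBP (2.95, adjusted p = 0.0242), so library 1 was nearest to CIRBP. The myogenic factor Myod1 was at 0.0346, 0.0367 and 0.0798 and 11.0, 9.84 and 11.6 FPKM (3.49), having passed the filter through si-CIRBP alone, and in NC and si-NC it had means of 0.0414 and 12.9 FPKM. Of the 11 myogenic transcription factors tested, Myog also passed through si-CIRBP alone. The other 9 held 0 higher, 3 lower and 6 not called. Only Myl4, an atrial and embryonic myosin light chain that also passed through si-CIRBP alone, had a called difference of gaps among the striated muscle genes (2.01, adjusted p = 0.00682), with 0.721, 0.450 and 0.733 FPKM in CIRBP and 5.25, 9.88 and 15.1 FPKM in si-CIRBP. The summed level of 9 striated muscle markers was 5.6 to 6.82 FPKM in CIRBP and 29.9 to 168 FPKM in si-CIRBP, and that of 5 smooth muscle markers 3.17 to 3.76 and 792 to 973 FPKM.

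Markers of other cell types differed by member. The 8 fibroblast markers summed to 2420 to 2533 FPKM in CIRBP, where Dcn was listed at 0 in all 3 libraries, and to 2606 to 3454 FPKM in si-CIRBP. Vim made up most of both sums, with means of 2329 and 2077 FPKM, while Pdgfrb (3.77 and 23.2 FPKM), Thy1 (0.192 and 49.7 FPKM), Col1a1 and Col3a1 were far higher in si-CIRBP. Pdgfra, of the same list, ran the other way, with means of 158.8 FPKM in CIRBP and 75.25 FPKM in si-CIRBP. The 6 astrocyte markers in the table summed to 199 to 211 FPKM in CIRBP and 136 to 179 FPKM in si-CIRBP. Most of that sum was S100b, a calcium-binding protein of glia, at 179, 176 and 188 and 110.5, 149 and 155 FPKM. Gfap, the astrocyte filament that the cell line label would call for, was at 6.89, 6.87 and 6.89 FPKM in CIRBP and 1.77, 3.04 and 3.48 FPKM in si-CIRBP (-1.10, adjusted p = 0.00428). The 6 markers of the oligodendrocyte lineage summed to 313 to 317 and 230.0 to 234 FPKM, with the glial factor Sox10 at 157, 152 and 155 and 124, 123 and 126 FPKM. Neuron markers summed to 18.1 to 18.6 and 10.1 to 13.9 FPKM, macrophage markers to 15 to 16.1 and 15.5 to 16.9 FPKM, endothelial markers to 4.72 to 5.30 and 3.09 to 3.31 FPKM, and epithelial markers to 17.3 to 18 and 17.3 to 18.5 FPKM. Myod1 was near 0 in CIRBP, and Gfap was at 6.89 FPKM or less in all 6 libraries, whereas S100b was at 110.5 FPKM or more. Single markers such as these do not settle which name given in the labels is right. The sums of the macrophage and epithelial markers overlapped between the groups, and those of the other marker sets did not. The part of these marker levels in the results below was not tested.

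The ATF4 and CHOP targets were lower in the libraries labelled si-CIRBP, and here the gap was not shared by the controls. Of 16 tested members, 9 were lower, 0 higher and 7 not called, against a background of 21.4% lower and 20.4% higher. Their median gap was -0.76, against -0.02 over all genes and 0.16 for the same members between the controls. The difference of gaps was called lower in 9 of the 16, against a background of 6.87%. Without si-CIRBP library 1, which lay nearer to CIRBP for most of these genes, 14 of the 16 were lower and 1 higher (34.1% and 28.3% of all genes).

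Trib3, a pseudokinase that dampens ATF4 signalling, was at 49.7, 51.9 and 47.1 FPKM in CIRBP and at 19.6, 6.53 and 6.16 FPKM in si-CIRBP. The groups did not overlap, which was a condition for naming it among the largest gaps. The ratio of means was 4.60 (-2.29, SE 0.40, adjusted p = 0.00551). Trib3 was also low in NC, with a mean of 4.73 FPKM, and stood at 5.07, 19.1 and 14.1 FPKM in si-NC, so the 3 CIRBP libraries were the highest of all 12. The difference of gaps was -3.38 (SE 0.63, adjusted p = 0.00564). Chac1, an enzyme that degrades glutathione, had the same order, with 45.6, 47.8 and 47.4 FPKM in CIRBP and 13.2, 5.72 and 6.17 FPKM in si-CIRBP (-2.44, SE 0.28, adjusted p = 0.00106; difference of gaps -3.01). Its means in NC and si-NC were 6.12 and 10.1 FPKM. For both genes si-CIRBP library 1 was the highest of its group and, as the condition for naming them required, below every CIRBP library.

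Asns, the asparagine synthetase, was at 136, 142 and 123 FPKM in CIRBP and 62.6, 30.1 and 32.1 FPKM in si-CIRBP (-1.74, adjusted p = 0.00349; difference of gaps -2.01, adjusted p = 0.00234). Atf4 itself was at 272, 275 and 264 and 148, 91.8 and 95.3 FPKM (-1.3, adjusted p = 0.00215; difference of gaps -1.09), but unlike its targets it was nearly as high in NC (234 FPKM) as in CIRBP. For Atf4, si-CIRBP was thus the lowest of the 4 groups, while for Trib3 and Asns CIRBP was the highest. Ddit4l2 was at 216, 182 and 171 and 30.0, 39.4 and 41.5 FPKM (-2.33, adjusted p = 9.8e-05; difference of gaps -1.60). Smaller gaps were called for the ER membrane protein gene Herpud1 (-0.77), the secreted stanniocalcin Stc2 (-1.17), the mTORC1 inhibitor Sesn2 (-0.75) and the bZIP factor Cebpg (-0.66). Ddit3, which encodes CHOP, was at 119, 135 and 117 FPKM in CIRBP and 99.5, 21.9 and 23.6 FPKM in si-CIRBP. Libraries 2 and 3 of si-CIRBP lay far below CIRBP and library 1 did not, and the gap missed the threshold (-1.70, adjusted p = 0.0512). Ppp1r15a, the phosphatase subunit that reverses eIF2 phosphorylation, had a gap near 0 and overlapping libraries.

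The letters TGATGNAA, read on both strands, are a form of the composite element that C/EBP and ATF factors bind, and were looked for in the 250 bases before the transcription start (RefSeq, assembly GRCr8). Of the 14 ATF4 and CHOP targets with a window, 4 (28.6%) held them, against 777 of 24206 windows (3.21%) in all genes. The windows of the 2 members with the largest downward difference of gaps are shown, with the matched letters in capitals, Trib3 at chr3:161275534-161275783 on the minus strand and Chac1 at chr3:126795881-126796130 on the plus strand.
Trib3: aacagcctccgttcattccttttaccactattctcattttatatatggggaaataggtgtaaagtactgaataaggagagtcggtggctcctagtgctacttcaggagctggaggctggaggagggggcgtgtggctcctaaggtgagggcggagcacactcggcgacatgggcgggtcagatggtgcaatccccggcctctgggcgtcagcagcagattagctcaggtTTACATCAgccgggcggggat
Chac1: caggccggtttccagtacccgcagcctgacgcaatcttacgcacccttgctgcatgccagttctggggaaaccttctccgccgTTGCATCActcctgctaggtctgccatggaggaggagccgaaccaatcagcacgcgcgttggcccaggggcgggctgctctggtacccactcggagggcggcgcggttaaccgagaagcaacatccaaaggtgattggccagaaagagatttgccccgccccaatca
A match is a description of the letters only. Pycr1 (1 of 12 windows, 8.33%, among the serine, one-carbon and proline enzymes) and Slc7a1 and Slc1a4 (2 of 11, 18.2%, among the transporters) also held them.

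Enzymes that make serine, one-carbon units and proline followed the ATF4 targets. Of 18 tested, 9 were lower and 3 higher in the libraries labelled si-CIRBP, against 21.4% and 20.4% of all genes. Shmt1 and Aldh1l2 (higher) and Cbs (lower) passed the filter through a single group and had to differ, and the other 15 held 8 lower, 1 higher and 6 not called. By the difference of gaps, 8 of the 18 were called lower and 0 higher (6.87% and 10.9% of all genes). Phgdh, the first enzyme of serine synthesis, was at 142, 139 and 142 FPKM in CIRBP and 86.9, 70.8 and 73.0 FPKM in si-CIRBP (-0.87, SE 0.08, adjusted p = 0.000503; difference of gaps -0.92). Psat1, the second enzyme, was at 106, 104 and 106 and 58.2, 45.5 and 45.2 FPKM (-1.08, adjusted p = 0.000495). Psph, which completes the pathway, was lower by a similar step (-1.18, difference of gaps -1.28). So all 3 enzymes from 3-phosphoglycerate to serine were lower, with no overlap of libraries in any of them (29.6% of all genes lay so).

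Folate enzymes moved both ways. The mitochondrial Mthfd2 was at 113, 112 and 109 FPKM in CIRBP and 67.3, 32.6 and 32.9 FPKM in si-CIRBP (-1.40, adjusted p = 0.00832; difference of gaps -1.83), and the mitochondrial serine hydroxymethyltransferase Shmt2 had a gap of -0.92 (difference of gaps -1.50). Mthfd1, the cytosolic counterpart, was higher (0.59, adjusted p = 0.00761). Pycr1, which makes proline in mitochondria, was at 64.0, 68.1 and 57.5 and 35.2, 13.5 and 14.8 FPKM (-1.66, adjusted p = 0.0101; difference of gaps -1.75). Its means were 9.95 (NC) and 10.7 FPKM (si-NC), so CIRBP was the group that stood out. Aldh18a1, the enzyme before Pycr1, was at 5.03, 10.4 and 9.19 and 0.479, 0.509 and 3.61 FPKM (-2.03, adjusted p = 0.0182). Its call was lost without CIRBP library 2, CIRBP library 3 or si-CIRBP library 2 (adjusted p up to 0.071), and its difference of gaps was not called (adjusted p = 0.233). Outside the list, Pck2, the mitochondrial phosphoenolpyruvate carboxykinase, was at 39.9, 41.9 and 41.6 and 17, 12.2 and 12.8 FPKM (-1.50, adjusted p = 0.000265; difference of gaps -1.78).

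Amino acid transporters divided by member. Of 15 tested, 9 were lower and 5 higher, against 21.4% and 20.4% of all genes, with Slc1a1 not called. Slc38a4 among the higher ones passed the filter through si-CIRBP alone. By the difference of gaps, 8 were called lower and 1 higher (6.87% and 10.9% of all genes). The higher calls numbered 3 without any single CIRBP library and 2 without si-CIRBP library 2 or 3. Slc7a11, the cystine transporter, was at 7.79, 7.66 and 6.89 FPKM in CIRBP and 4.59, 2.03 and 2.12 FPKM in si-CIRBP (-1.17, adjusted p = 0.0101). It was at 0.490 (NC) and 0.877, 3.82 and 3.1 FPKM (si-NC), and the difference of gaps was -2.33 (adjusted p = 0.00668). The CIRBP libraries again held the highest values of all 12.

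The leucine transporter Slc7a5 was at 122, 120.4 and 121 and 75.9, 49.8 and 51.6 FPKM (-1.05, adjusted p = 0.00302; difference of gaps -1.19). Slc3a2, the chain that both Slc7a11 and Slc7a5 need at the membrane, was at 169.7, 169 and 164 and 108, 86.2 and 90.5 FPKM (-0.82, adjusted p = 0.000793). Slc1a4, a carrier of alanine and serine, was at 59.0, 61.0 and 55.1 and 37.2, 18.9 and 19.3 FPKM (-1.25, difference of gaps -1.73). The glutamine carrier Slc1a5 (-1.44), the glycine carrier Slc6a9 (-1.34) and the arginine carrier Slc7a1 (-0.73) were lower as well. The higher ones included Slc38a2, a sodium-coupled neutral amino acid carrier, at 38.9, 36.2 and 37.5 and 72.7, 89.3 and 99.7 FPKM (1.18), and the taurine carrier Slc6a6 (0.66). Both were higher in si-NC than in NC by nearly the same step, with differences of gaps of 0.01 and 0.01.

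**Figure D2:**
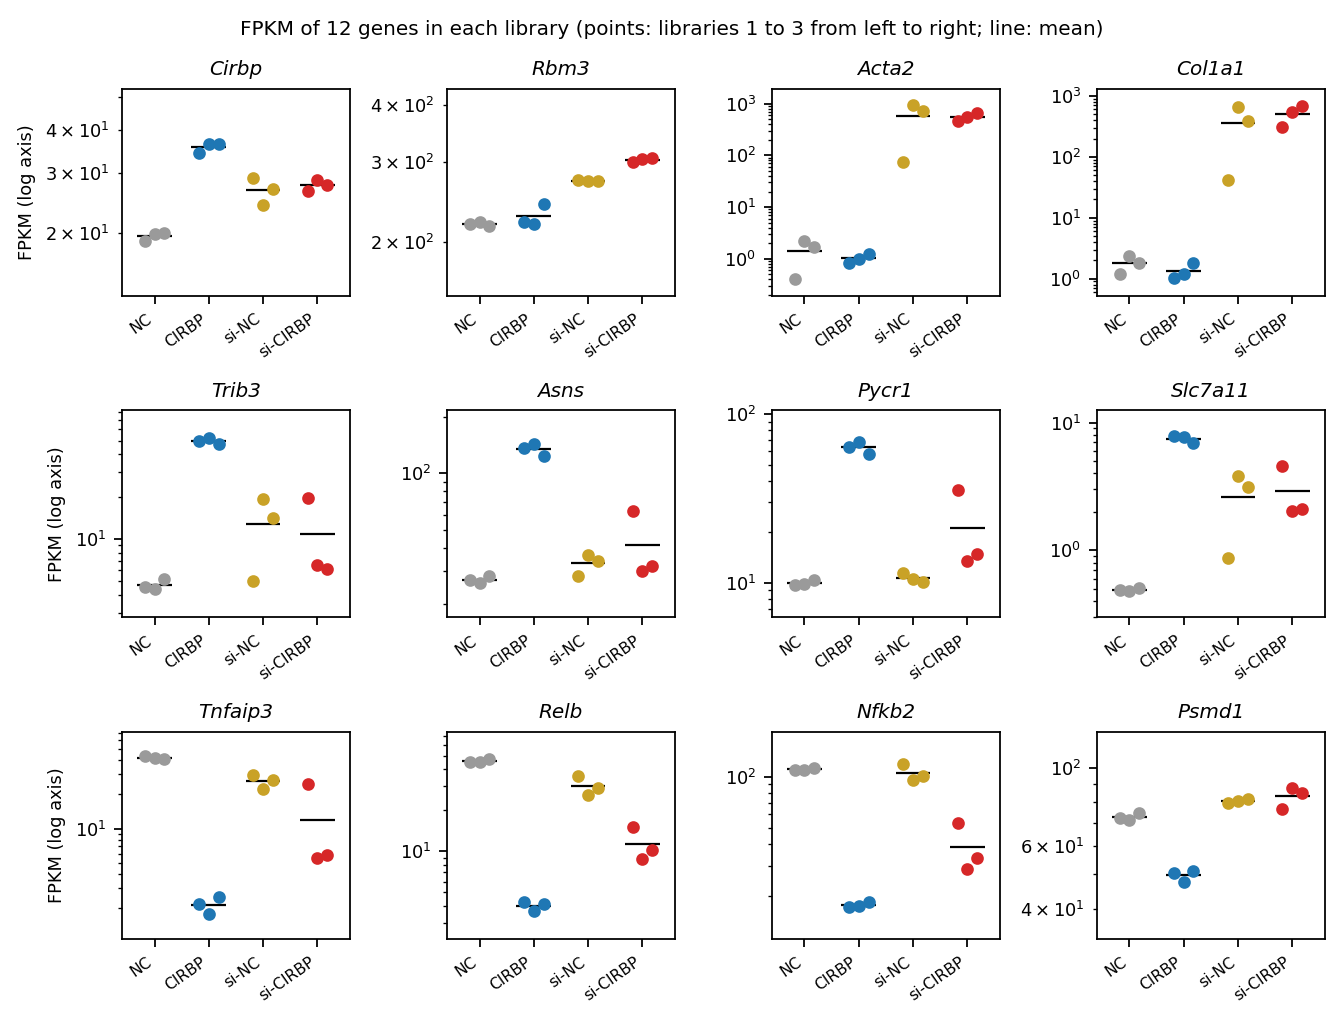
FPKM (log axis) of 12 genes in every library of the 4 groups, with libraries 1 to 3 from left to right and a line at the mean. CIRBP is the highest group for Trib3, Asns, Pycr1 and Slc7a11 and the lowest for Tnfaip3, Relb, Nfkb2 and Psmd1, whereas Acta2 and Col1a1 divide by arm, and si-CIRBP library 1 is the highest of its group for the ATF4 and NF-kB genes shown.

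Genes of the antioxidant factor NRF2 leaned the same way as the ATF4 targets. Of 23 tested, 8 were lower, 3 higher and 12 not called, against 21.4% lower and 20.4% higher in all genes. Ephx1 among the higher ones passed the filter through si-CIRBP alone. The lower calls numbered 5 without CIRBP library 1, CIRBP library 2 or si-CIRBP library 3. Nqo1, a quinone reductase and standard NRF2 readout, was at 317, 342 and 290.3 FPKM in CIRBP and 157, 166 and 164 FPKM in si-CIRBP (-0.96, adjusted p = 0.000182; difference of gaps -0.94). Gclc, which limits glutathione synthesis, was at 82.5, 79.0 and 72.5 and 38.1, 45.6 and 43.5 FPKM (-0.87, difference of gaps -0.82). The next enzyme, Gss, was higher instead, at 16.7, 15.3 and 15.2 and 29.5, 26.1 and 27.2 FPKM (0.77, difference of gaps 0.52). The pentose phosphate enzyme Tkt was at 351, 361 and 307 and 229, 132 and 132 FPKM (-1.09, adjusted p = 0.00934; difference of gaps -1.02). The factor's own gene Nfe2l2 was lower by -0.48 (difference of gaps -0.45), while Hmox1, Txnrd1 and Gsr were not called.

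NF-kB genes were higher in the libraries labelled si-CIRBP. Of 24 tested, 20 were higher, 0 lower and 4 not called, against backgrounds of 20.4% and 21.4%. Ptgs2, Lcn2 and C3 passed the filter through si-CIRBP alone and had to differ, and the other 21 held 17 higher, with a median gap of 0.61. The same 24 members had a median of -0.07 between the controls, and the difference of gaps was called higher in 12 and lower in 0, against a background of 10.9%. Without si-CIRBP library 1, 18 of 21 tested were higher (28.3% of all genes). The count was 12 of 24 without any single CIRBP library and 13 of 21 without si-CIRBP library 3, and none was lower in these fits.

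Relb, the subunit of the non-canonical pathway, was at 4.22, 3.63 and 4.11 FPKM in CIRBP and 15.1, 8.71 and 10.2 FPKM in si-CIRBP. The groups did not overlap, a condition for naming it among the largest differences (1.27, SE 0.19, adjusted p = 0.0028). Its means were 45.9 (NC) and 30.2 FPKM (si-NC). The libraries labelled si-CIRBP thus lay between CIRBP and the controls, and the difference of gaps was 1.87 (adjusted p = 0.000721). Nfkb2, its partner, was at 17.2, 17.4 and 18.3 and 53.4, 28.8 and 33.1 FPKM (1.03, adjusted p = 0.0106), below 111 (NC) and 105 FPKM (si-NC). Nfkb1, the canonical p105/p50 gene, was at 25.2, 26.8 and 25.1 and 40.6, 37.5 and 37.6 FPKM (0.57, adjusted p = 0.000625; difference of gaps 0.62). Rela was higher by a smaller step (0.36, difference of gaps 0.56) and Rel was not called (0.40).

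Among the inhibitors, Tnfaip3, the ubiquitin editor A20, was at 2.18, 1.76 and 2.48 FPKM in CIRBP and 24.5, 5.48 and 5.79 FPKM in si-CIRBP, with NC and si-NC at means of 42.0 and 26.2 FPKM. si-CIRBP library 1 lay far above libraries 2 and 3, and the call (1.73, adjusted p = 0.0398) was lost without any single CIRBP library or without the filter on low values (adjusted p up to 0.12). Its difference of gaps was 2.40 (adjusted p = 0.0182). Nfkbia, which encodes the inhibitor IkB-alpha, was at 20.6, 20.9 and 24.3 and 190.0, 39.8 and 45.2 FPKM, again highest in library 1, and missed the threshold (1.64, adjusted p = 0.0625). The inhibitors Nfkbie (0.61) and Nfkbib (0.81) and the coactivator Bcl3 (0.52) were higher, each with a called difference of gaps. Of the targets, Il1rl1, the IL-33 receptor, was at 1.36, 1.47 and 1.63 FPKM in CIRBP and 8.64, 6.94 and 7.63 FPKM in si-CIRBP (1.81, adjusted p = 6.39e-05; difference of gaps 1.97). The adhesion molecule gene Icam1 was at 13.9, 13.9 and 13.8 and 55.9, 22.8 and 25.1 FPKM (1.14, adjusted p = 0.0308; difference of gaps 1.54). The gap of Vcam1 was near 0.

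The NF-kB consensus, read on both strands by the standard degenerate motif, was in the 250-base window of 10 of 21 members with a window (47.6%), against 1550 of all 24206 windows (6.4%). The windows of Nfkb2 at chr1:255108124-255108373 on the plus strand and of Tnfaip3 at chr1:15543980-15544229 on the minus strand are shown as those of a subunit and an inhibitor that differed, with the matches in capitals (RefSeq, assembly GRCr8).
Nfkb2: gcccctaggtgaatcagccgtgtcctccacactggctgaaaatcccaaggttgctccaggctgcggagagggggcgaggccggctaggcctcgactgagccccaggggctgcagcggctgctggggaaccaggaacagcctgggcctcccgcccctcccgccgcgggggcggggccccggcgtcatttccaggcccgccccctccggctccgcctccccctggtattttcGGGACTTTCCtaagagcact
Tnfaip3: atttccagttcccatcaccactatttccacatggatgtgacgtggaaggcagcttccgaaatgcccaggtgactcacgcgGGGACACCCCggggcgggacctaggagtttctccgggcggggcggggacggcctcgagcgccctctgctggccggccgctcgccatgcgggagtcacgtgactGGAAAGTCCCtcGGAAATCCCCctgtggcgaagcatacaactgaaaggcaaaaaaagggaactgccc
Tnfaip3 held 3 matches. The CArG box, the element of serum response factor, was searched in the same way in the smooth muscle contractile genes and was in 0 of 9 windows, against 1.51% of all windows. At so low a share 9 windows are too few to show a lack of the element. No binding was measured, and the letters say nothing of it.

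Chemokines were higher too, and the controls differed in the same way. Of 17 tested genes of chemokines and IL-6 family signalling, 9 were higher and 2 lower, against 20.4% and 21.4% of all genes. The difference of gaps was called higher in 0 and lower in 1 (Cxcl16, -0.44), against 10.9% and 6.87% of all genes. Ccl5, Cxcl12 and Lifr passed the filter through si-CIRBP alone, and the other 14 held 6 higher and 2 lower. The higher calls numbered 4 of 14 tested without si-CIRBP library 2 and 5 of 14 without library 3. Ccl2, which attracts monocytes, was at 40.0, 31.5 and 47.5 FPKM in CIRBP and 1467, 358 and 446 FPKM in si-CIRBP (3.94, adjusted p = 0.00185). It was at 70.2 (NC) and 1624 FPKM (si-NC), and its difference of gaps was not called (-0.57, adjusted p = 0.552). Cxcl1, which attracts neutrophils, was at 5.39, 5.29 and 11.2 and 588, 59.5 and 86.3 FPKM (4.21, difference of gaps 0.59, adjusted p = 0.716). Ccl and Cxcl genes belong to families of similar sequence, so single members are uncertain.

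Immediate early genes gave no common direction, with 6 of 24 higher (25%), 3 lower and 15 not called, against 20.4% higher and 21.4% lower in all genes. The lower calls numbered 1 when CIRBP library 1 or si-CIRBP library 2 or 3 was left out. Without si-CIRBP library 1 there were 11 higher and 11 lower (28.3% and 34.1% of all genes). Gadd45g, a growth arrest gene, was at 6.99, 8.90 and 9.05 FPKM in CIRBP and 45.5, 16.6 and 17.2 FPKM in si-CIRBP (1.41, adjusted p = 0.0265). That call was lost without any single CIRBP library (adjusted p up to 0.0891), whereas the difference of gaps was 2.37 (adjusted p = 0.00424) against means of 75.7 (NC) and 38.5 FPKM (si-NC). The phosphatase gene Dusp1 was at 7.96, 7.30 and 8.31 and 42.9, 18 and 22.9 FPKM (1.62, difference of gaps 0.62, not called). Cebpd, a C/EBP factor of acute inflammation, was at 17.4, 18.2 and 21.4 and 59.1, 44.8 and 49.7 FPKM (1.38), but rose even more between the controls (2.96), so its difference of gaps was negative (-1.58, adjusted p = 0.000263). Klf4 was lower, at 76.3, 76.0 and 76.7 and 48.8, 45.9 and 45.0 FPKM (-0.70, difference of gaps -0.62).

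Proteasome subunits were higher in the libraries labelled si-CIRBP by small and even steps. Of 30 tested, 22 were higher and 0 lower, against 20.4% and 21.4% of all genes. The median gap was 0.27 (0.05 between the controls), and the difference of gaps was called higher in 12 (10.9% of all genes). Without CIRBP library 1 or 2 the higher calls numbered 14 and 13, and the called differences of gaps 7 and 6, with 6 without NC library 3. Leaving out si-CIRBP library 1 left 23 higher (28.3% of all genes). Psmd1, a large scaffold subunit of the regulatory particle, was at 50.5, 47.5 and 51.1 FPKM in CIRBP and 76.4, 87.4 and 84.9 FPKM in si-CIRBP (0.72, SE 0.07, adjusted p = 0.000436; difference of gaps 0.58). NC and si-NC had means of 72.4 and 80.3 FPKM, so CIRBP was the lowest group. Psmd2, another scaffold of the regulatory particle, was at 108, 104 and 115 and 141, 151 and 157 FPKM (0.45, difference of gaps 0.38). The ATPase Psmc2 (0.40), the lid subunit Psmd12 (0.36) and the core subunit Psma2 (0.34) behaved alike, and of the 7 core beta subunits listed as Psmb1 to Psmb7 only Psmb2 was called.

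Cytosolic heat shock genes were higher in 13 of 18 and lower in 2 (Hsf2 and Hspb6), against 20.4% and 21.4% of all genes. Hspb1, Hspb2 and Hspb7 passed the filter through si-CIRBP alone, and the other 15 held 10 higher, 2 lower and 3 not called. The higher calls numbered 7 of 15 tested without si-CIRBP library 2 and 8 of 15 without library 3. Hsph1, an HSP110 chaperone that recharges HSP70, was at 14.6, 13.9 and 15.2 FPKM in CIRBP and 43.6, 53.2 and 52.6 FPKM in si-CIRBP (1.70, adjusted p = 5.37e-05; difference of gaps 1.35). Hspa4, its relative, was at 55.9, 55.9 and 59.3 and 89.8, 91.9 and 91.9 FPKM (0.67, difference of gaps 0.78), and the small heat shock gene Cryab was at 63.3, 60.2 and 66.4 and 122, 116 and 134 FPKM (0.96, difference of gaps 1.13). These were the 3 members with a called difference of gaps (10.9% of all genes upward). The HSP70 gene Hspa8 was at 383, 376 and 379.5 FPKM in CIRBP and 451, 746 and 765 FPKM in si-CIRBP, where library 1 was nearest to CIRBP (0.74, adjusted p = 0.0274; difference of gaps 0.31).

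Splicing factors of the hnRNP and SR families, to which cold-inducible RNA-binding proteins are related, were higher in 10 of 27 (37%) and lower in 1. The shares of all genes were 20.4% and 21.4%, and the median gap of the list was 0.23. Without si-CIRBP library 1 the splicing factors were higher in 21 and lower in 2 (28.3% and 34.1% of all genes). The higher calls fell to 5 without library 1 or 2 of CIRBP or library 2 or 3 of si-CIRBP. Hnrnpk was at 198, 194 and 203 FPKM in CIRBP and 253, 287 and 286 FPKM in si-CIRBP (0.47, adjusted p = 0.002; difference of gaps 0.45). The splicing regulator Tra2a was at 34.2, 36.7 and 39.3 and 47.5, 58.1 and 58.8 FPKM (0.56, difference of gaps 0.53). Of the 9 tested cold-shock RNA-binding proteins, Rbm3 alone was higher.

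Genes of TGF-beta and BMP signalling, which steer matrix synthesis and differentiation, moved both ways. Of 28 tested, 11 were higher and 7 lower, against 20.4% and 21.4% of all genes. Of the higher ones, 3 passed the filter through si-CIRBP alone, Tgfbr3 and Bmp4 among them. The difference of gaps was called lower in 5 and higher in 1 (6.87% and 10.9% of all genes). All 4 Id genes, which BMP signals induce and which hold back differentiation, were lower. Id1 was at 145, 139.7 and 144 FPKM in CIRBP and 91.9, 69.2 and 70.0 FPKM in si-CIRBP (-0.90, adjusted p = 0.00153; difference of gaps -0.66). Id4 was at 73.1, 73.9 and 72.0 and 21.7, 39.3 and 39.2 FPKM (-1.15, adjusted p = 0.00791; difference of gaps -0.98), and Id2 and Id3 were lower by smaller steps (-0.71 and -0.55). The ligand gene Bmp2 was at 17.5, 16.1 and 15.2 and 8.97, 8.39 and 8.31 FPKM (-0.85, difference of gaps -1.24). The matricellular genes Ccn1 and Ccn2, known TGF-beta and mechanical stress targets, were higher, Ccn1 at 8.89, 10.8 and 10.2 and 86.5, 49.3 and 51.6 FPKM (2.49, difference of gaps 1.33) and Ccn2 at 86.4, 98.4 and 115 and 317, 399.5 and 409 FPKM (1.90, difference of gaps 0.28, adjusted p = 0.343). The ligand genes Bmp2 and Bmp4 ran opposite to each other.

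Targets of p53 were higher in 8 of 21 and lower in 3, against 20.4% and 21.4% of all genes. Pmaip1 passed the filter through si-CIRBP alone, and the lower calls numbered 7 without si-CIRBP library 1 (34.1% of all genes). The difference of gaps was called higher in 7 and lower in 2 (10.9% and 6.87% of all genes). The cyclin Ccng1 was at 151, 142 and 144 FPKM in CIRBP and 206, 191 and 194 FPKM in si-CIRBP (0.43, adjusted p = 0.00123; difference of gaps 0.70), and the pro-apoptotic Bax was at 55.9, 54.6 and 57.9 and 64.2, 64.4 and 68.3 FPKM (0.22, difference of gaps 0.41). For both the groups did not overlap (26.9% of all genes lay so, higher in si-CIRBP) and the steps were small. The cell cycle inhibitor Cdkn1a and the ubiquitin ligase Mdm2, the most used p53 readouts, were not called (0.09 and 0.77).

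Several genes outside these groups were also among the 10 largest differences of gaps in one direction or the other. Tfrc, the transferrin receptor that brings in iron, was at 11.1, 9.84 and 13.1 FPKM in CIRBP and 151, 72.6 and 67.3 FPKM in si-CIRBP (2.90, adjusted p = 0.000819; difference of gaps 2.36, adjusted p = 0.00231). The AMPK-related kinase Nuak1 was at 2.56, 2.69 and 2.47 and 14.4, 14.5 and 16.2 FPKM (2.17, difference of gaps 2.14), with close replicates in both groups. Pmepa1, a TGF-beta target that dampens that pathway, was at 9.40, 10.3 and 12.8 and 59.4, 64.3 and 65.7 FPKM (2.45, difference of gaps 1.78). The prostaglandin E2 receptor gene Ptger1 was at 6.80, 6.4 and 8.66 and 15.8, 23.6 and 25.4 FPKM (1.43, difference of gaps 1.80). None of these 4 overlapped between the groups, which was a condition for naming them. Apln, which encodes the peptide apelin, was at 4.50, 3.34 and 5.75 and 23.3, 10.2 and 8.25 FPKM (1.32, adjusted p = 0.0313), a call lost without any single CIRBP library or si-CIRBP library 2 (adjusted p up to 0.108), with a difference of gaps of 2.11.

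In the other direction, Ifi27l2b, of an interferon-induced family, was at 104, 106 and 87.4 FPKM in CIRBP and 56.6, 29.4 and 34.6 FPKM in si-CIRBP (-1.33, difference of gaps -2.50). The inflammatory caspase gene Casp4 was at 55.0, 60.2 and 49.2 and 30.7, 13.4 and 14.3 FPKM (-1.54, adjusted p = 0.00832; difference of gaps -1.64). The potassium channel gene Kcnh6 fell evenly across the libraries, from 166, 154 and 158 FPKM in CIRBP to 44.5, 47.8 and 43.8 FPKM in si-CIRBP (-1.79, SE 0.05, adjusted p = 8e-06; difference of gaps -1.59). Txnip, the glucose-responsive thioredoxin inhibitor, was at 173, 215 and 146 and 56.9, 17.5 and 17.2 FPKM (-2.72, adjusted p = 0.00478). Its relative Arrdc4 was lower as well (-2.01). Txnip was also lower in si-NC than in NC (-1.28), and its difference of gaps was not called (adjusted p = 0.0768). Scg2, a secretory granule protein, was at 342, 346 and 328 and 149.8, 165 and 168 FPKM (-1.07, difference of gaps -0.10, adjusted p = 0.622). Of the 15 tested collagens, 8 were higher and 5 lower (20.4% and 21.4% of all genes), with Col11a1 among the higher ones through si-CIRBP alone. Col5a3 was at 78.3, 80.2 and 82.3 and 29.8, 29.3 and 30.3 FPKM (-1.40, difference of gaps -0.68), opposite to Col1a1 and Col3a1.

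The other decreases among the 15 largest were Gad1 (-2.14), which makes the transmitter GABA, Disp2 (-2.04), Prr5 (-1.85), Islr (-1.80), the ATP-gated channel gene P2rx1 (-1.72), Tubb3 (-1.71), a neuronal tubulin, and Yif1b (-1.68). Of all 15 largest decreases, 9 had a called difference of gaps, Gad1 (-1.22) and Disp2 (-1.33) among them. The Tubb3 call was lost without any single CIRBP library and without library 2 or 3 of si-CIRBP (adjusted p up to 0.102), and that of Yif1b without CIRBP library 2 (0.0553). Against 21.4% lower and 20.4% higher in all genes, astrocyte and glial genes were lower in 7 of 11 tested and higher in 2. Of these 2, Slc1a3 passed the filter through si-CIRBP alone and had to differ. Neuron and secretory granule genes were lower in 5 of 6 and higher in 0. Between the controls, 3 of those 6 were lower too, with a median of -0.48 against -0.58 between the treatments, and 0 had a called difference of gaps, while of the 11 glial genes 4 were lower and 2 higher between the controls and 3 had a called difference downward. The calls for neuron genes numbered 3 without any single CIRBP library or without si-CIRBP library 2 or 3.

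Of the other lists, 3 are set beside their controls here. MHC class I antigen processing genes were higher in 4 of 16 (25%) between the treatments, near the 20.4% of all genes. Between the controls they were higher in 14 of 16 (12.5% of all genes), and the difference of gaps was called lower in 4 (6.87% of all genes). The light chain B2m was at 310.5, 319 and 323 FPKM in CIRBP and 423, 319 and 333 FPKM in si-CIRBP, which overlapped, against means of 360.5 (NC) and 703 FPKM (si-NC) (difference of gaps -0.80, adjusted p = 0.00575). Circadian clock genes were lower in 5 of 20 (25%), near the 21.4% of all genes, and higher in 0 (20.4% of all genes). Between the controls 13 were lower (21.9% of all genes), and without si-CIRBP library 1 16 were lower between the treatments (34.1% of all genes). The clock output gene Dbp was at 55.2, 53.9 and 49.8 and 24.6, 21.4 and 21.8 FPKM (-1.19, adjusted p = 9.14e-05), a step close to that between the controls (-1.14). Sterol synthesis genes were higher in 10 of 27 and lower in 3 (20.4% and 21.4% of all genes). Without si-CIRBP library 1, 18 were higher (28.3% of all genes), and the median difference of gaps was 0.05.

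**Figure D3:**
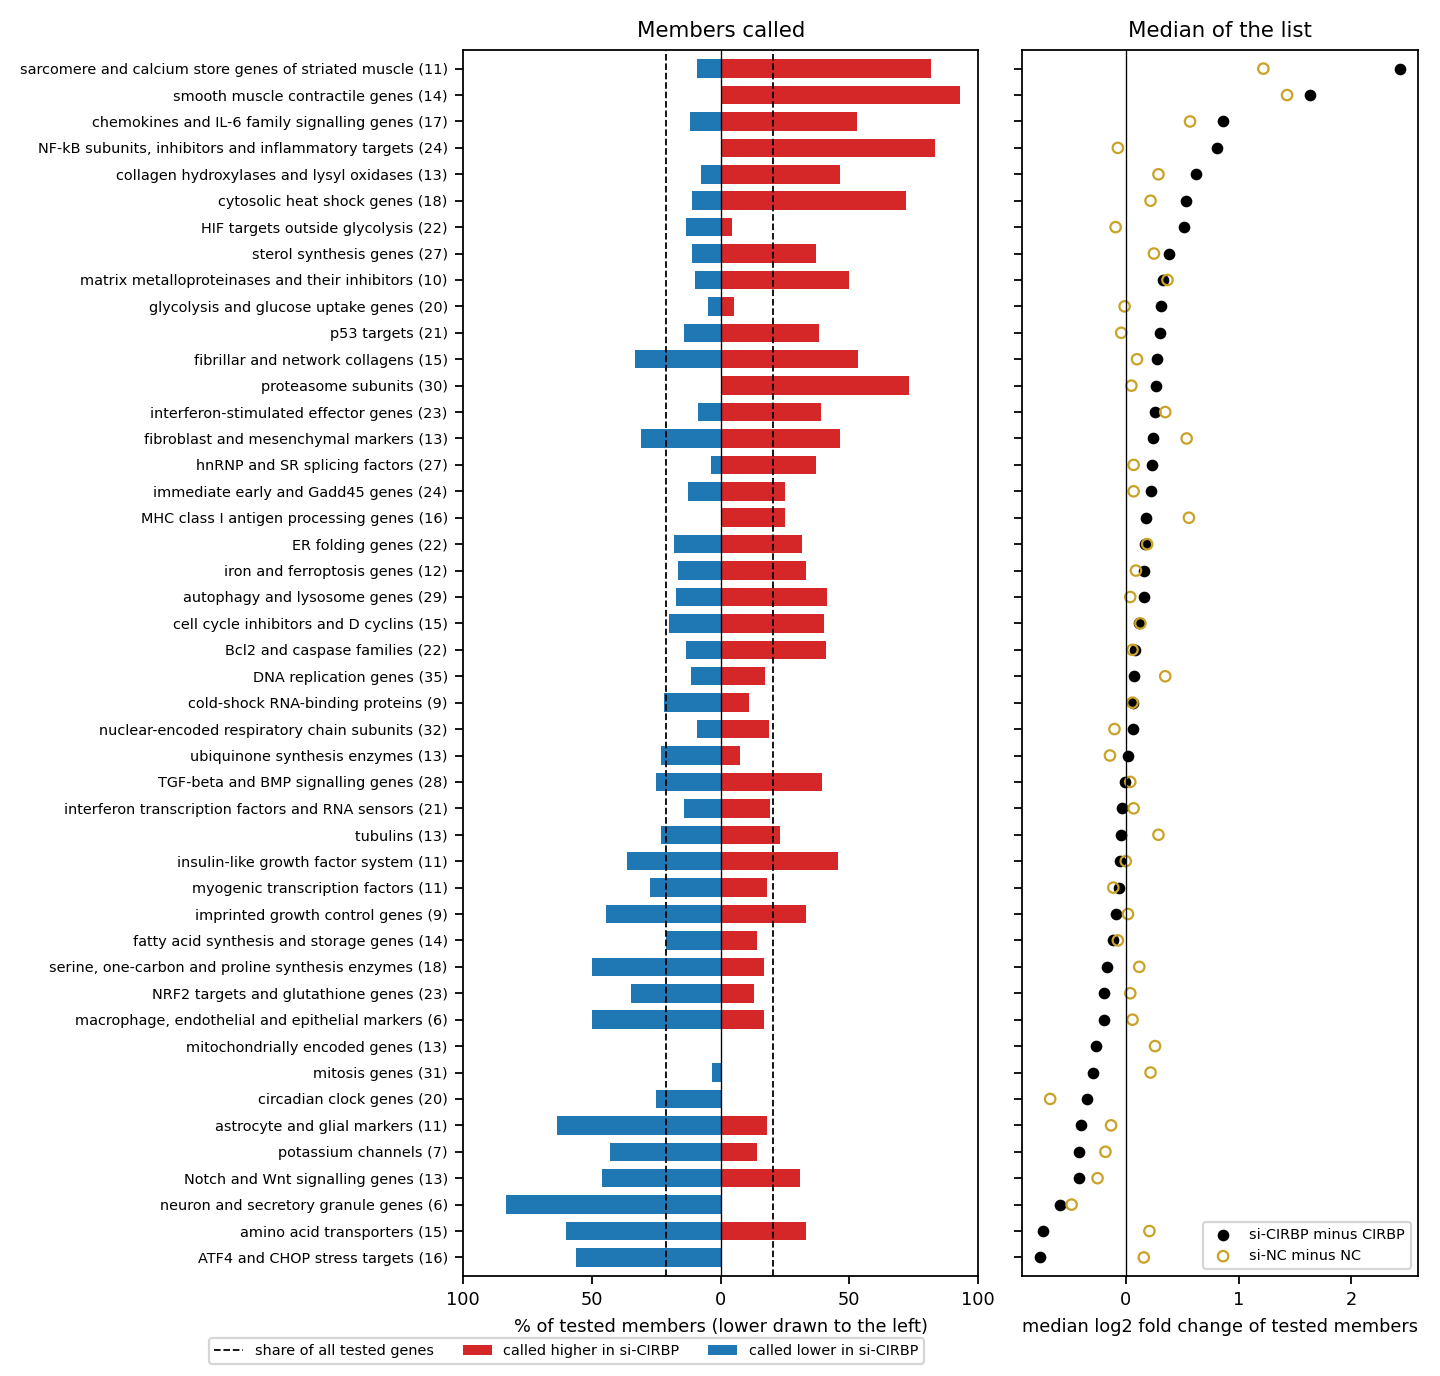
For 46 gene lists (tested members in brackets), the left panel gives the share of members called higher (red) or lower (blue) in the libraries labelled si-CIRBP, with dashed lines at the shares of all tested genes, 20.4% and 21.4%. The right panel gives the median log2 fold change of each list between the treatments (filled) and between the controls (open), and in the muscle lists 5 of 11 and 8 of 14 members passed the filter through si-CIRBP alone, so their bars had to be high.

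Library 1 of si-CIRBP differed from libraries 2 and 3 in whole gene groups. Of 22 tested HIF targets outside glycolysis, genes that cells raise when oxygen is low, library 1 lay above both others in 20, against 41.7% of all tested genes. Relative to the CIRBP mean the median of these genes was 1.45 in library 1, 0.03 in library 2 and -0.12 in library 3. Ero1a, an ER oxidase, was at 48.1, 42.0 and 52.1 FPKM in CIRBP and 258, 42.8 and 38.7 FPKM in si-CIRBP. The mitophagy receptor gene Bnip3 was at 94.5, 87.5 and 105 and 320.2, 93.8 and 79.8 FPKM, and the angiogenic factor gene Vegfa at 65.9, 64.0 and 68.2 and 128, 36.3 and 32 FPKM. In all 3, library 1 lay far above CIRBP while libraries 2 and 3 lay at or below it. Glycolysis genes had medians of 0.89, 0.12 and 0.06 in libraries 1, 2 and 3, and library 1 was above both others in 19 of 20. Hexokinase 2 (Hk2) was at 19.8, 17.7 and 23.5 FPKM in CIRBP and 89.3, 36.4 and 30.9 FPKM in si-CIRBP.

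Mitosis genes were below both other libraries in library 1 for 31 of 31 members, against 46.5% of all tested genes, with medians of -1.01, 0.04 and -0.04. DNA replication genes were lowest in library 1 for 31 of 35, and the 13 mitochondrially encoded genes for all 13. The comparison of all 3 against 3 libraries called 1 HIF target higher and 3 lower, 1 glycolysis gene in each direction and 1 mitosis gene lower. The higher HIF target was Lox, which passed the filter through si-CIRBP alone and had to differ. Without library 1 the comparison called 5 and 8 HIF targets higher and lower, 6 and 5 glycolysis genes and 8 and 9 mitosis genes. The shares of all genes in that fit were 28.3% and 34.1%. The place of library 1 relative to CIRBP differed by list. For ATF4 and CHOP targets its median was -0.54, nearer to CIRBP than in libraries 2 and 3 (-0.94 and -0.96), and for NF-kB genes 1.14, farther from CIRBP than in libraries 2 and 3 (0.54 and 0.64). Proteasome subunits had 0.28, 0.28 and 0.31. What set library 1 apart was not tested.

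**Figure D4:**
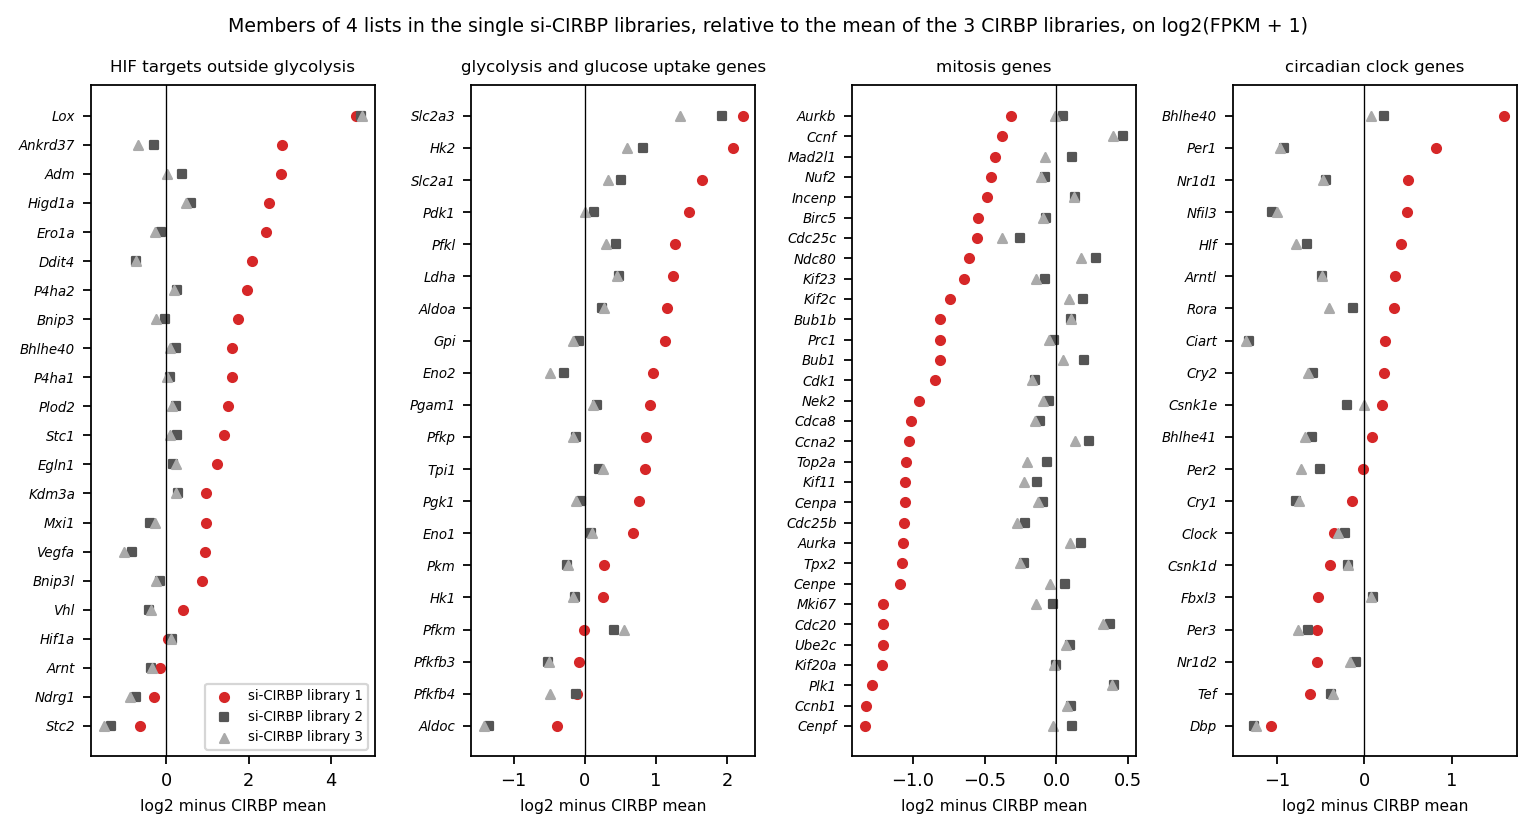
Members of 4 lists in each single library labelled si-CIRBP (red circles library 1, dark squares library 2, grey triangles library 3), as log2(FPKM + 1) minus the mean of the 3 CIRBP libraries, which is the vertical line at 0. Library 1 lies to the right of the others for 20 of 22 HIF targets and 19 of 20 glycolysis genes and to the left for 31 of 31 mitosis genes, while libraries 2 and 3 stay close to each other.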

How the data were processed

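Gene expression was measured by RNA-seq in 12 libraries, 3 in each of 4 groups, taken from the labels. The authors deposited 1 FPKM table, with a value for each gene in each library per the file headers, of 18344 entries, of which 16618 carry rat Ensembl identifiers and 1726 are transcripts assembled by the authors. Per the submitters' processing notes, the tools included Cufflinks (2.2.1) and Bowtie2 (2.3.3.1), with GRCm38 and mm10 as builds. Those builds are of mouse while the identifiers are of rat, and the role of each tool, the annotation and the strand setting were not given in the sources used here. FPKM keep no read totals, so the depth of each library is unknown. A value of exactly 0 is described as listed at 0.

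The difference si-CIRBP minus CIRBP was fitted with limma 3.58.1 (R 4.3.3, lmFit and eBayes with a trend) on log2(FPKM + 1) over the 6 libraries, for the 13373 genes that reached 1 FPKM in 3 libraries or more. The gap between the controls and the difference of the gaps were fitted over all 12 libraries (14257 genes). Tests were two-sided, p-values were adjusted by Benjamini-Hochberg over all genes tested, and genes were called at an adjusted p under 0.05. Fold changes on log2(FPKM + 1) understate those of low genes. With 3 against 3 libraries, an exact permutation test of 1 gene cannot go below p = 0.1, so the calls rest on limma's pooled estimate of the spread. On simulated data the script recovered most changes of 1 or more on the log2 scale. With each gene's own SD, 49.3% of changes of 0.5 were recovered between the treatments and 29.9% for the difference of gaps. With SDs moderated across genes these were 47.8% and 35.8%. A missing call for a gap of that size or smaller therefore does not show that the gap is absent. The share of unchanged genes among the calls was above the nominal 0.05, more so for the difference of gaps. With each gene's own SD it was 16.4% between the treatments and 34.9% for the difference, and with SDs moderated across genes 10.2% and 19.2%. Only 200 genes were changed in the simulation, so these are not the shares among the real calls. A call near the threshold is weak.

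The genes named are Cirbp, Rbm3, the 15 with the largest increase and the 15 with the largest decrease among called genes without overlap of the libraries (mean of the higher group 5 FPKM or more), the 10 largest differences of gaps each way called in both tests, and up to 5 members of each list by p. Entries known only by an identifier or provisional name were left out. Further list members were picked for the text with their values in view. The members and the 46 gene lists were chosen with earlier results of these data known; 897 of 1017 listed symbols were in the table. Members of near-identical families (Ifit, Oas, Ccl, Cxcl, RT1, actins) are uncertain one by one. Promoter sequences are from RefSeq (GRCr8), and the 250 bases before each start were searched. Alternatives covered the pseudocount (0.1), the filter (none, or 5 FPKM), scaling to one median or by median ratios, a variance factor per group, a replicate block, a fit on all 12 libraries, no trend, a robust fit, Ensembl genes only, and leaving out each library. Lists with no passage in the text are shown in the plot of all lists, and certain genes are not reported here.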

Additional observations from a re-analysis of the deposited data

Results flagged for a closer look

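The gap between the treatments differed from the gap between the controls in 1555 genes upward and 980 downward, by limma's test of the difference. Further genes named in the text passed this test too. The values below are those of Cirbp and of the genes named for the largest differences each way. Cirbp was the first of them, with a difference of -0.78: its level was lower in the libraries labelled si-CIRBP than in CIRBP but higher in si-NC than in NC. Upward, the differences were 2.40 for Tnfaip3, 2.37 for Gadd45g, 2.36 for Tfrc, 2.14 for Nuak1, 2.11 for Apln, 2.01 for Myl4, 1.97 for Il1rl1, 1.87 for Relb, 1.80 for Ptger1 and 1.78 for Pmepa1. Downward, they were -3.38 for Trib3, -3.01 for Chac1, -2.50 for Ifi27l2b, -2.33 for Slc7a11, -2.01 for Asns, -1.83 for Mthfd2, -1.78 for Pck2, -1.75 for Pycr1, -1.73 for Slc1a4 and -1.64 for Casp4.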

How the results depend on the processing

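Each count of calls was recomputed with 1 choice changed at a time, and so was the gap between the treatments for each gene of the naming rule. None of these genes reversed its direction. Further list members picked for the text, such as Nfkb2, Icam1 and Tkt, were not recomputed. Of 237 named genes called between the treatments, 34 lost the call in at least 1 alternative that tested them, most often when a CIRBP library was left out. Of these 237, 185 were tested in every alternative, and 31 of those lost it. The difference of gaps was recomputed only for Cirbp, Rbm3 and the genes named for the largest differences, which were picked by the same test. Of the 21 of these genes with a called difference, 0 lost it. Called differences of other genes, such as Hsph1, Cebpd and B2m, were not recomputed, so whether they hold was not tested. Leaving out each library in turn gave 3516 to 7923 genes called between the treatments (1526 to 3595 higher and 1654 to 4328 lower). Between the controls it gave 2950 to 5883 (970 to 2182 higher and 1932 to 3701 lower), and for the difference of gaps 1529 to 4503 (938 to 2674 higher and 569 to 1829 lower). Leaving out library 1 of both si-CIRBP and si-NC, an alternative chosen after the data were seen, gave 5880 called differences of gaps, 3594 higher and 2286 lower. A replicate block gave 4783 calls between the treatments (2399 higher and 2384 lower), 4525 between the controls and 2232 for the difference. Same-numbered libraries did not deviate together (r of 0.03, -0.06 and 0.06), so the numbers were not taken to pair them. Scaling to one median gave 2891 higher and 2650 lower between the treatments and 2149 and 2493 between the controls, where the unscaled split was 1783 and 3126. Between the treatments the higher calls thus outnumbered the lower ones after scaling, as they did with no filter (3201 and 2881), with the replicate block and without any single CIRBP library, but not in the unscaled fit (2727 and 2858). FPKM hold no depth, so no counting error could be given, and values near 0 are the least certain.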

Other observations

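Genes of autophagy and the lysosome, which break down cell components, were higher in the libraries labelled si-CIRBP in 12 of 29 tested and lower in 5, against 20.4% and 21.4% of all genes. Ctsa, the protective protein cathepsin A, was at 74.2, 73.3 and 76.5 FPKM in CIRBP and 148, 134 and 148 FPKM in si-CIRBP (0.93, adjusted p = 9.83e-05; difference of gaps 0.08). The sialidase Neu1 was at 3.59, 3.14 and 3.46 and 15.2, 9.54 and 10.5 FPKM (1.51, adjusted p = 0.000916; difference of gaps 0.83), and the membrane protein gene Lamp1 at 137, 138 and 133 and 215, 187 and 197 FPKM (0.55, difference of gaps 0.23). In all 3 the groups did not overlap (26.9% of all genes lay so, higher in si-CIRBP), and the difference of gaps was not called. The factors that drive lysosomal genes ran the other way, with Tfeb (-0.27), Tfe3 (-0.24) and Mitf (-0.71) lower. The difference of gaps was called higher in 4 members, the proton pump subunits Atp6v0d1 (0.67) and Atp6v1h (0.79), the autophagosome protein gene Gabarap (0.54) and the lysosomal channel gene Mcoln1 (0.52), and lower in 0.

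ER folding genes were split, with 7 of 22 higher and 4 lower (20.4% and 21.4% of all genes). Without si-CIRBP library 1, 13 were higher (28.3% of all genes). The chaperone gene Calr was at 313, 300.4 and 316 FPKM in CIRBP and 481, 502 and 513 FPKM in si-CIRBP (0.68, adjusted p = 0.000185). Of the genes for the disposal of misfolded proteins, Edem1 was lower, at 66.5, 67.3 and 64.3 and 48.8, 46.9 and 44.2 FPKM (-0.49, difference of gaps -0.52) and so was Sel1l, at 50.2, 53.7 and 48.1 and 35.9, 39.4 and 38.2 FPKM (-0.41, difference of gaps -0.52). The stress sensor gene Ern1 was at 12.6, 13.5 and 11.4 and 8.92, 5.17 and 4.99 FPKM (-0.91, adjusted p = 0.0133; difference of gaps -0.45, not called). These genes were picked from their lists with their values in view.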
